A study of Rattus norvegicus with 9 samples.

Results

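A set of genes of the JAK-STAT pathway were examined in rat bone: the kinase Jak2, the transcription factors Stat3, Stat5a and Stat5b, the feedback inhibitors Socs1, Socs2, Socs3 and Cish, and Il22ra2, a soluble receptor for interleukin 22. They were chosen by gene symbol, and all 9 were found among the 23026 genes of the deposited tables. All 9 also passed the filter on low counts, which left 16874 genes to test. The deposited annotation places each of them in the KEGG JAK-STAT signaling pathway, a term it gives to 143 genes.

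The study examined bone of female Sprague-Dawley rats, bought at 8 weeks of age, from 3 groups of 3 animals each. In the Sham group, fat beside the ovary was removed and the ovaries were left in place. These rats then received the vehicle sodium carboxymethyl cellulose (CMC-Na), which the sample records give as 1%, 2% and 3% for Sham replicates 1, 2 and 3, whereas the methods text gives a single vehicle of 1% for Sham and OVX rats alike. Which of these is right was not settled here. The OVX group was ovariectomized on both sides, a model of bone loss after the menopause, and received 1% CMC-Na. The OVX-AS-IV-High group was ovariectomized and received Astragaloside IV (AS-IV), a saponin of Astragalus root, at 80 mg/kg by gavage, and is called AS-IV for short. By the methods text, the AS-IV was prepared in 1% CMC-Na. Dosing began 6 weeks after surgery and lasted 8 weeks. No allele or transgene was involved.

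Cytokines and growth hormone bind receptors that have no kinase of their own and rely on Janus kinases bound to their tails. The kinases phosphorylate STAT proteins, which pair, enter the nucleus and switch on target genes. Among those targets are the SOCS genes and Cish, whose products block the receptor or the kinase and so close a feedback loop. In bone and marrow, STAT3 carries signals of the interleukin 6 family, and STAT5A and STAT5B carry those of growth hormone, erythropoietin, prolactin and several interleukins. Since the activity of these proteins is set by phosphorylation, which RNA-seq does not measure, the values below are transcript levels.

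STAT dimers bind the palindrome TTCNNNGAA, which reads the same on both strands. Promoter windows from RefSeq (build GRCr8, from 250 bases before to 50 bases after the start of the gene) were held for 7 of the 9 members, and not for Il22ra2 or Socs2. The palindrome occurred in 2 of those 7 windows. The Cish window held 4 matches, none overlapping another, and the Socs1 window held 1. Windows of Jak2, Stat3, Stat5a, Stat5b and Socs3 held none. Among all 33469 windows, 8.87% held at least 1 match and 2 windows, 0.00598%, held 4, Cish being 1 of them. The 250 bases before the start are shown for the feedback gene with most matches, for the other feedback gene with a match, and for Stat5a, the member whose level differed most steadily between groups. Matches are in capitals.
Cish, chr8:116850719-116850968, plus strand: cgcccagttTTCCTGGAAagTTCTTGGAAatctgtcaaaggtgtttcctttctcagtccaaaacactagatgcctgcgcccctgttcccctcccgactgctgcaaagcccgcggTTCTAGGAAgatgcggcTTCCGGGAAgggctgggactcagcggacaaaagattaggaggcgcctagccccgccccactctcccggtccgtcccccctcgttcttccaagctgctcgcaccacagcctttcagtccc
Socs1, chr10:5389324-5389573, plus strand: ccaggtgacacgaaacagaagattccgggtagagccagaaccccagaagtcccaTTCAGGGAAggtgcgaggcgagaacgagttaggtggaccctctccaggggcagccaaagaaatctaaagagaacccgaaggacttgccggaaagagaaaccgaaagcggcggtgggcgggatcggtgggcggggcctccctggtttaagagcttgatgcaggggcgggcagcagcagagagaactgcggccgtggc
Stat5a, chr10:86285609-86285858, plus strand: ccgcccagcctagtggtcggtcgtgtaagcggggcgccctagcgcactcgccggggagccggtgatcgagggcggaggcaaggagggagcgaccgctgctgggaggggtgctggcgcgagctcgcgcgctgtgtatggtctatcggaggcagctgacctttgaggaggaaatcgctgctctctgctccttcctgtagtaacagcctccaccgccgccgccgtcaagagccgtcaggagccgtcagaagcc
The 4 matches in Cish began 241, 230, 136 and 119 bases before the start, and the match in Socs1 began 196 bases before it. A match is a string of letters and was not tested for binding.

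Levels differed widely among the members. They are given as FPKM, fragments scaled to transcript length and library size, which corrects for gene length and library depth. Over the 9 libraries Stat3 was highest at 28.5 ± 2.58 FPKM (SD, n = 9), followed by Stat5b at 24.4 ± 1.20, Jak2 at 19.6 ± 2.48 and Stat5a at 17.6 ± 2.38. The feedback genes lay lower, with Socs1 at 7.76 ± 1.83 FPKM, Socs3 at 6.63 ± 2.15, Socs2 at 5.75 ± 0.469 and Cish at 2.04 ± 0.852. Il22ra2 came last at 0.161 ± 0.0874 FPKM. The ranges of Stat3 and Stat5b overlapped, although Stat3 was above Stat5b in each of the 9 libraries. Jak2 and Stat5a also overlapped, with Jak2 higher in 7 of 9 libraries. Socs1, Socs3 and Socs2 could not be ordered beyond their spread: Socs1 exceeded Socs3 in 5 libraries and Socs3 exceeded Socs2 in 6. Stat5b and Jak2, Stat5a and Socs1, Socs2 and Cish, and Cish and Il22ra2 did not overlap.

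**Figure D1:**
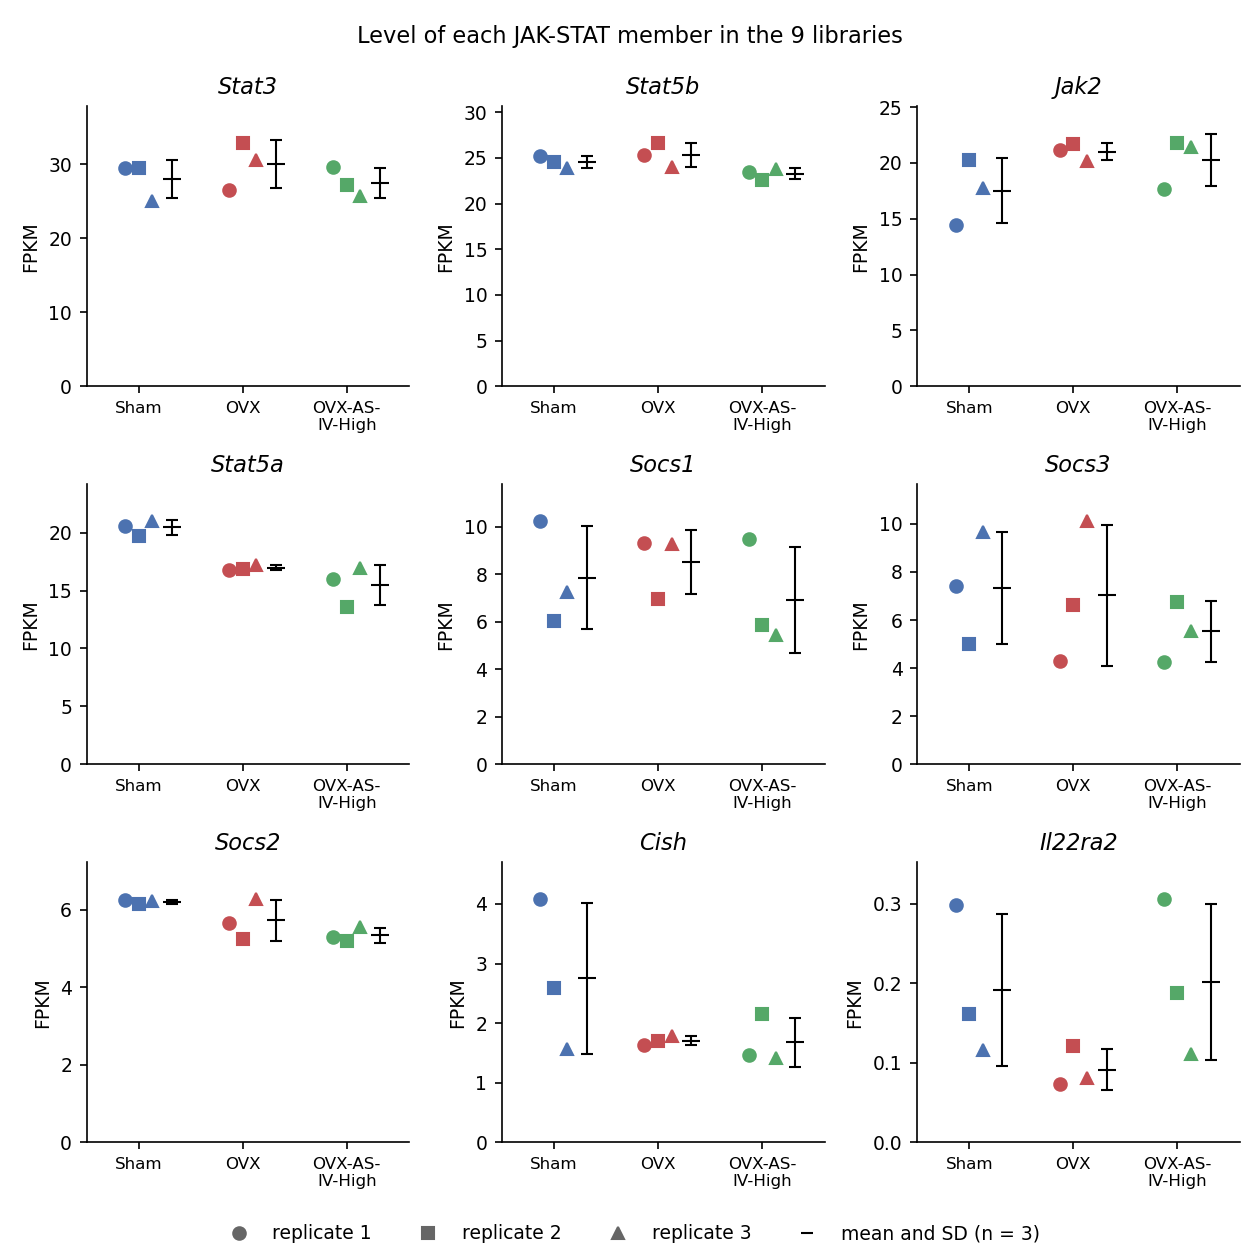
Level of each member in FPKM on the vertical axis, by group, with 1 symbol shape per replicate number and the mean and SD of 3 libraries in black. All OVX and AS-IV points for Stat5a lie below the Sham points, while Socs1, Socs3 and Cish spread widely within a group.

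The members also differed in how far replicates lay apart. The biological coefficient of variation estimated by edgeR was 0.106 for Stat5b, 0.113 for Socs2 and 0.114 for Stat5a, against a median of 0.187 over all genes tested. It was 0.128 for Stat3 and 0.141 for Jak2. The values were 0.259 for Socs1, 0.292 for Socs3, 0.311 for Cish and 0.411 for Il22ra2. The kinase and the STATs, together with Socs2, therefore varied less between replicates than the median gene, and the other feedback genes and Il22ra2 varied more.

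Depth was similar throughout, with between 34874880 and 37298250 counts per library. Osteoblast and osteoclast markers (16 genes) were above 0 in every library, at levels that varied. Summed osteoblast markers ran from 1280 to 2816 FPKM in Sham, from 2652 to 4463 in OVX and from 1420 to 3751 with AS-IV. Summed osteoclast markers ran from 473 to 1199 FPKM in Sham, from 759 to 1477 in OVX and from 670 to 1431 with AS-IV. Skeletal muscle markers were present too: the summed level of the 11 muscle markers in the table ran from 1149 to 6314 FPKM in Sham, from 1187 to 2306 in OVX and from 401 to 3160 with AS-IV, and no marker was at 0. Summed B lineage markers (7 genes) ran from 415 to 553 FPKM in Sham, from 746 to 793 in OVX and from 485 to 723 with AS-IV.

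Stat5a was lower in ovariectomized bone, with and without AS-IV. Its product transmits signals of prolactin, growth hormone, erythropoietin and several interleukins. The 3 Sham libraries stood at 20.6, 19.7 and 21.0 FPKM. The OVX libraries stood at 16.8, 16.9 and 17.2 FPKM, and the AS-IV libraries at 16.0, 13.6 and 16.9 FPKM. Every library from an ovariectomized rat was thus below every Sham library, and the 2 ovariectomized groups overlapped. Group means were 20.4 ± 0.651 FPKM in Sham, 17.0 ± 0.220 in OVX and 15.5 ± 1.73 with AS-IV (SD, n = 3 each).

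In OVX vs. Sham, Stat5a fell by 0.30 on the log2 scale (SE 0.10), a change of -18.5% with a 95% interval from -29.8% to -5.44%. The unadjusted p from edgeR's quasi-likelihood test was 0.0123, and the Benjamini-Hochberg adjusted p over all genes was 0.199. In AS-IV vs. Sham it fell by 0.39 (SE 0.10), with an unadjusted p of 0.00258 and an adjusted p of 0.117. In AS-IV vs. OVX the log2FC was -0.09, with a 95% interval from -0.31 to 0.12 and an adjusted p of 0.945. With the ovariectomized groups averaged and set against Sham, a comparison added after the data were seen, the log2FC was -0.34, the unadjusted p 0.00215 and the adjusted p 0.0888. The exact two-sided permutation test over libraries gave p = 0.1 for each ovariectomized group against Sham, the smallest value that 3 against 3 libraries allow, and p = 0.0238 for all 6 ovariectomized libraries against Sham. The unadjusted call stood under each alternative and without any single library. In whole bone, fewer cells of a type and less RNA per cell cannot be told apart.

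Stat5b, the paralog next to Stat5a on chromosome 10, stayed closer to its Sham level. Its Sham libraries stood at 25.2, 24.5 and 23.9 FPKM. The OVX libraries gave 25.3, 26.7 and 24.0 FPKM, and the AS-IV libraries 23.4, 22.6 and 23.8 FPKM. OVX and Sham overlapped. The log2FC in OVX vs. Sham was 0.02 with a 95% interval from -0.16 to 0.19, and in AS-IV vs. Sham it was -0.07 (adjusted p = 0.669). The AS-IV libraries did lie below all Sham libraries, by a small margin.

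The ratio of Stat5a to Stat5b within a library, examined after the levels were seen, removes differences in depth. Sham gave 0.815, 0.805 and 0.878, OVX gave 0.665, 0.632 and 0.717, and AS-IV gave 0.683, 0.601 and 0.711. All 6 ratios from ovariectomized rats were below the 3 from Sham. Mean ratios were 0.833 ± 0.0399 in Sham, 0.671 ± 0.0427 in OVX and 0.665 ± 0.0572 with AS-IV (SD, n = 3 each). The exact two-sided permutation test gave p = 0.1 for each ovariectomized group against Sham and p = 0.0238 for the 6 ovariectomized libraries against Sham. Each is the smallest value that these numbers of libraries allow. The value of 0.0238 became 0.238 after Benjamini-Hochberg adjustment over the 20 ratio tests computed. The Stat5a levels were already apart when the ratio was chosen, so these tests are not separate evidence. The genes share much of their coding sequence, so reads could have been divided between them during counting, and a shift of shared reads from Stat5a to Stat5b would alter the ratio. How much they share was not analysed here.

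**Figure D2:**
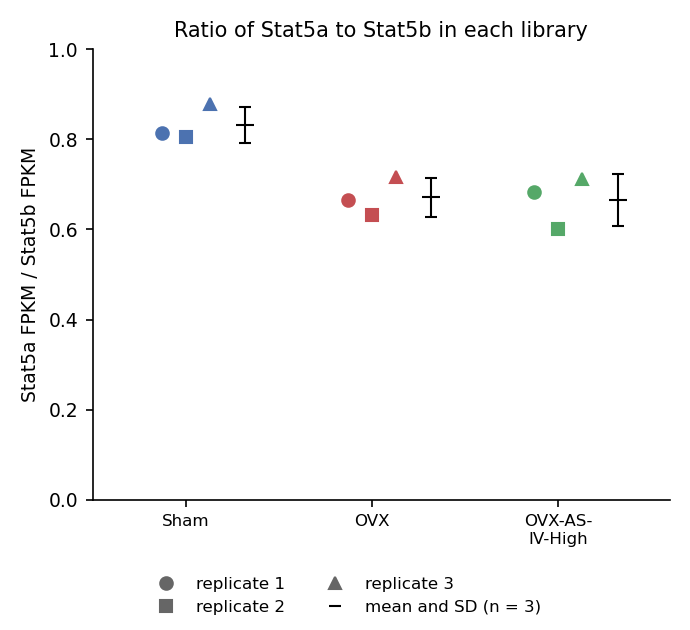
Stat5a FPKM divided by Stat5b FPKM in each library on the vertical axis, by group, with the mean and SD of 3 libraries in black. The Sham libraries lie between 0.805 and 0.878, and the 6 ovariectomized libraries between 0.601 and 0.717.

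Stat3 carries signals of interleukin 6, oncostatin M, leptin and granulocyte colony-stimulating factor. Its libraries stood at 29.5, 29.5 and 25.0 FPKM in Sham, 26.5, 32.9 and 30.6 in OVX, and 29.7, 27.1 and 25.7 with AS-IV. The groups overlapped. The log2FC was 0.07 in OVX vs. Sham, with a 95% interval from -0.19 to 0.33, and -0.09 in AS-IV vs. OVX, with an interval from -0.35 to 0.17.

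Jak2, the kinase of the growth hormone, erythropoietin and leptin receptors, stood at 14.5, 20.3 and 17.8 FPKM in Sham. It stood at 21.2, 21.7 and 20.2 FPKM in OVX and at 17.6, 21.8 and 21.4 with AS-IV. Sham replicate 1 was the lowest of all 9 libraries, and the groups overlapped. The log2FC in OVX vs. Sham was 0.23 (SE 0.14), with an unadjusted p of 0.123. With Sham replicate 2 left out it was 0.37 there and 0.36 in AS-IV vs. Sham, at unadjusted p-values of 0.0229 and 0.0275. With Sham replicate 1 left out it was 0.093 and 0.089, at unadjusted p-values of 0.441 and 0.460.

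Among the feedback genes, Socs2, which dampens growth hormone signalling and is itself a STAT5 target, had the narrowest spread. Sham libraries stood at 6.24, 6.14 and 6.22 FPKM. OVX libraries gave 5.66, 5.23 and 6.28 FPKM, and AS-IV libraries 5.28, 5.18 and 5.54 FPKM. The AS-IV group lay below Sham without overlap, whereas OVX replicate 3 was the highest library of all. The log2FC in AS-IV vs. Sham was -0.21, with an unadjusted p of 0.0541 and an adjusted p of 0.292, so it did not pass. Without OVX replicate 2 or OVX replicate 3, which enter only through the shared spread, the unadjusted p was 0.0433 and 0.0449. With OVX replicate 3 left out, the averaged comparison passed as well (-0.21, unadjusted p = 0.0252).

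Cish, a STAT5-induced inhibitor of cytokine receptors, was high in a pair of Sham libraries. Its levels were 4.09, 2.59 and 1.57 FPKM in Sham. OVX gave 1.63, 1.69 and 1.78 FPKM, and AS-IV gave 1.47, 2.16 and 1.41 FPKM. Sham replicate 3 lay within the range of the ovariectomized libraries, so the groups overlapped. The log2FC was -0.71 in OVX vs. Sham (unadjusted p = 0.0611) and -0.70 in AS-IV vs. Sham (unadjusted p = 0.0653), and neither passed. With the ovariectomized groups averaged it fell by 0.70 against Sham, at an unadjusted p of 0.033 and an adjusted p of 0.202. That call was lost without Sham replicate 1, where the log2FC was -0.32 and the unadjusted p 0.269. It was also lost without Sham replicate 2, OVX replicate 1, OVX replicate 2, AS-IV replicate 1 or AS-IV replicate 3, at unadjusted p-values from 0.0556 to 0.0674. With Sham replicate 3 left out, Cish passed in both comparisons of an ovariectomized group with Sham, at log2FC of -0.99 and -0.97 (unadjusted p = 0.00676 and 0.00726). It passed with AS-IV replicate 2 left out in AS-IV vs. Sham too (-0.91, unadjusted p = 0.0403).

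Muscle markers moved with Cish within Sham. Their summed level was 6314, 3933 and 1149 FPKM in Sham replicates 1, 2 and 3, the same order as Cish. Within OVX the order was the opposite, with muscle markers at 2306, 1385 and 1187 FPKM and Cish highest in replicate 3. With AS-IV the orders differed as well, since Cish was highest in replicate 2 and the markers, at 3160, 1531 and 401 FPKM, in replicate 1. Stat5a did not follow that order, and was 21.0 FPKM in Sham replicate 3, where muscle markers were lowest of that group. The part of muscle in the Cish values was not tested.

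**Figure D3:**
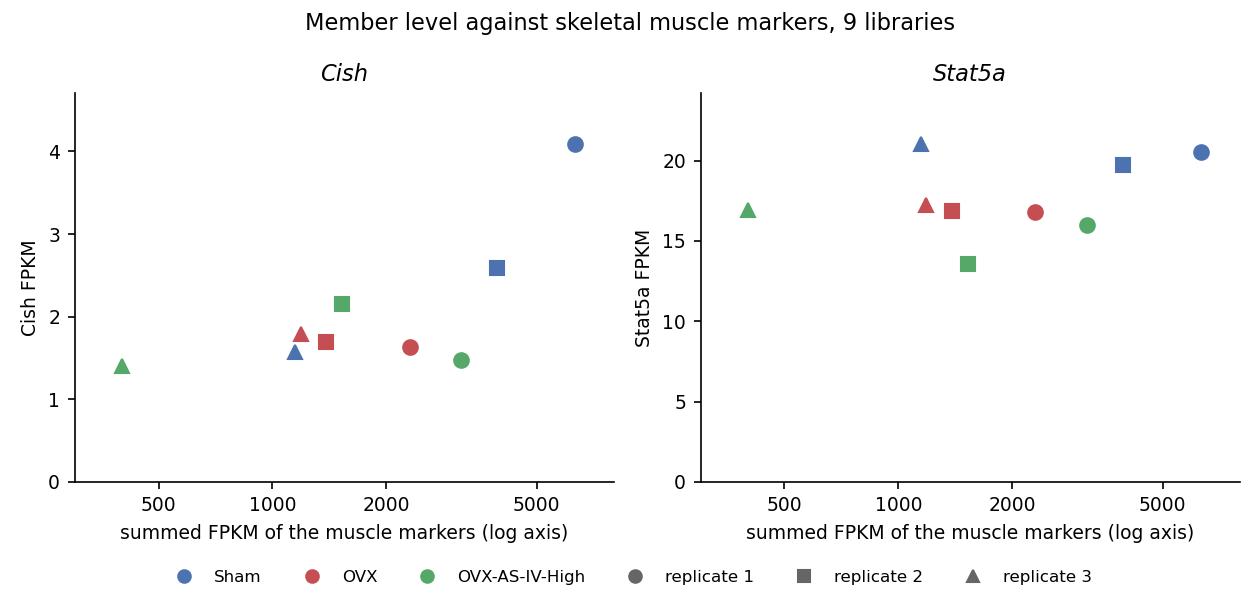
Cish (left) and Stat5a (right) in FPKM against the summed FPKM of 11 skeletal muscle markers on a log axis, 1 point per library. Cish is highest in the 2 Sham libraries with most muscle signal (6314 and 3933), whereas Sham replicate 3, at 1149, has the highest Stat5a level of the 9 libraries.

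Socs1 and Socs3 varied within each group as much as between groups. Socs1, an inhibitor of interferon signalling, stood at 10.3, 6.02 and 7.27 FPKM in Sham, 9.32, 6.96 and 9.27 in OVX, and 9.49, 5.85 and 5.43 with AS-IV. Socs3, which inhibits signalling through the interleukin 6 receptor subunit gp130, stood at 7.40, 4.99 and 9.64 FPKM in Sham, 4.30, 6.64 and 10.1 in OVX, and 4.25, 6.77 and 5.57 with AS-IV. All 3 groups overlapped for both genes. For Socs1 the 95% interval of the log2FC in OVX vs. Sham ran from -0.52 to 0.71, and for Socs3 from -0.82 to 0.65. In the comparison of AS-IV with OVX the log2FC was -0.26 for Socs1 and -0.32 for Socs3, with adjusted p-values of 0.946 each. With AS-IV replicate 1 left out, Socs1 passed at -0.57 (unadjusted p = 0.0499).

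Il22ra2 encodes a decoy that binds interleukin 22 and keeps it from its membrane receptor. It is a gene the study singled out on these same libraries, so its direction here is not independent evidence. Sham libraries held 101, 53 and 39 counts of it. OVX libraries held 25, 42 and 28 counts, and AS-IV libraries 108, 66 and 38 counts. OVX replicate 2, at 42, exceeded Sham replicate 3 and AS-IV replicate 3, so the groups overlapped in both comparisons. The change fitted by edgeR passed the unadjusted threshold in OVX vs. Sham (lower, unadjusted p = 0.048, adjusted p = 0.300) and in AS-IV vs. OVX (higher, unadjusted p = 0.0344, adjusted p = 0.737). The exact two-sided permutation test gave p = 0.2 for each. In AS-IV vs. Sham the log2FC was 0.10, with a 95% interval from -0.95 to 1.14.

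The Il22ra2 calls were not stable. On log2(FPKM + 1) and on log2(FPKM + 0.1) with limma, neither comparison passed, with unadjusted p-values of 0.133 and 0.097 in OVX vs. Sham and 0.104 and 0.0763 in AS-IV vs. OVX. Il22ra2 lay between 0.0729 and 0.306 FPKM, so the added constants shrink its changes and these fits are a weak check. The log2FC there was -0.12 and -0.57 in OVX vs. Sham and 0.14 and 0.61 in AS-IV vs. OVX. In edgeR the OVX vs. Sham call was lost without Sham replicate 1, Sham replicate 2, OVX replicate 1, OVX replicate 3 or AS-IV replicate 2, with unadjusted p-values from 0.0635 to 0.217. The AS-IV vs. OVX call was lost without OVX replicate 1, OVX replicate 3, AS-IV replicate 1 or AS-IV replicate 2, with unadjusted p-values from 0.0548 to 0.162. The smallest changes in size among these edgeR fits were -0.65 on leaving out Sham replicate 1 and 0.73 on leaving out AS-IV replicate 1. Within Sham and with AS-IV, Il22ra2 counts followed the order of the muscle markers (3160, 1531 and 401 FPKM with AS-IV), and within OVX they did not (2306, 1385 and 1187). The part of muscle in the Il22ra2 values was not tested. In RefSeq on build GRCr8, Il22ra2, Socs1 and Socs2 each overlap 1 other annotated gene. The counts were made on build mRatBN7.2, where overlaps were not examined. Where such an overlap holds there too, the counts are less certain if strand was ignored.

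The other genes of the interleukin 22 axis were scarce or level. Il22 itself had at most 1 count in any library and 3 counts over all 9. Il22ra1, the receptor subunit specific to this family, gave counts of 1, 16 and 31 in the Sham group, of 6, 0 and 0 in OVX, and of 1, 12 and 18 with AS-IV, with an unadjusted p of 0.0639 in OVX vs. Sham. Il10rb, the subunit shared with interleukin 10, lay between 11.9 and 14.7 FPKM throughout. At this depth interleukin 22 transcript was at or under the limit of 3 counts per library that a count of 0 allows.

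Counted over the list, 2 of the 9 members passed an unadjusted p of 0.05 in OVX vs. Sham, Stat5a and Il22ra2, both lower. Of all genes tested, 16.4% passed in that comparison, 8.16% higher and 8.28% lower. In AS-IV vs. OVX, 1 of 9 passed, Il22ra2, where 6.45% of all genes did, 4.42% higher and 2.03% lower. In AS-IV vs. Sham, 1 of 9 passed, Stat5a, where 17.6% of all genes did, 9.17% higher and 8.48% lower. In the averaged comparison 2 of 9 passed, Stat5a and Cish, where 21.0% of all genes did. Counts this small lie near the background. Groups did not overlap for 1 member in OVX vs. Sham (23.3% of all genes), for 0 in AS-IV vs. OVX (12.7%) and for 3 in AS-IV vs. Sham (19.9%), namely Stat5a, Stat5b and Socs2. With the 6 ovariectomized libraries taken as 1 group against Sham, only Stat5a did not overlap, as did 9.84% of all genes. When a log2FC beyond 1 in either direction was also required, Il22ra2 was the only member past in OVX vs. Sham (3.11% of all genes) and in AS-IV vs. OVX (0.830%). In the main edgeR fit no member had an adjusted p under 0.05 in any of these comparisons. Neither did any gene of that fit in the 3 comparisons between groups, while 17 genes (0.101%) did in the averaged one. With DESeq2, Stat5a passed the adjusted threshold in AS-IV vs. Sham (adjusted p = 0.0111) and in the averaged comparison (adjusted p = 0.00688), and not in OVX vs. Sham (adjusted p = 0.0708). Over all alternatives its highest adjusted p was 0.347, 0.308 and 0.44 in these comparisons, each DESeq2 value being the lowest. Between groups, 2775, 1089 and 2978 genes had an unadjusted p under 0.05, and DESeq2 called 810, 29 and 985 genes at that adjusted threshold, in the order OVX vs. Sham, AS-IV vs. OVX and AS-IV vs. Sham. Limma on log2(FPKM + 1) called 0, 0 and 4, and on log2(FPKM + 0.1) it called 0, 0 and 5. With same-numbered libraries treated as a block, a pairing not established here, edgeR called 21, 0 and 58. That block gave 566 genes in the averaged comparison. The median log2FC of the members was -0.09 in OVX vs. Sham and -0.09 in AS-IV vs. OVX, against -0.01 and -0.02 over all genes.

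**Figure D4:**
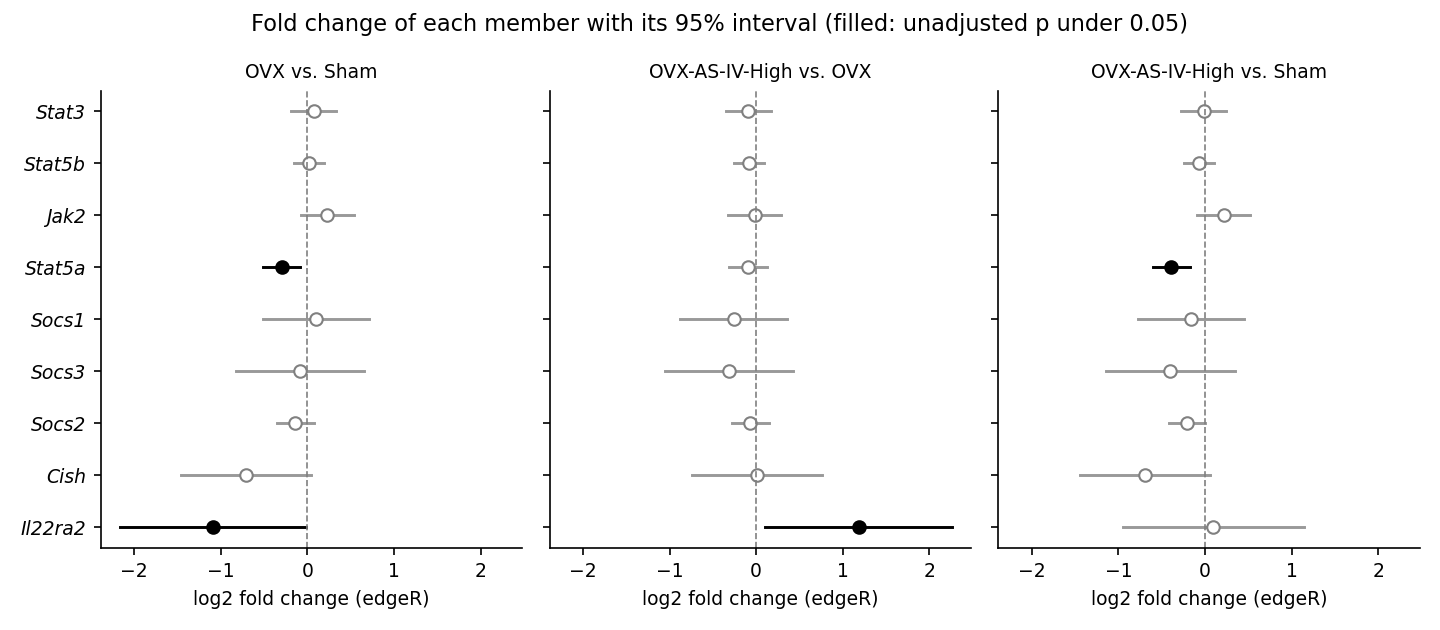
Log2 fold change of each member (points) with its 95% interval (lines) from edgeR, 1 panel per comparison, with filled points where the unadjusted p was under 0.05. Stat5a lies at -0.30 and -0.39 in the comparisons with Sham, and the intervals of Il22ra2, Cish and Socs3 are the widest.

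The members did not move as a block. Over the 9 libraries, the median Pearson r of log2 CPM (counts scaled to library size) among the 36 pairs was 0.10, and 21 pairs were above 0. The highest was 0.81, between Stat5a and Socs2, and the lowest was -0.64. These values describe 9 points from 3 groups that share group differences, and carry no test. Among all named genes tested, those most like Cish were Kifc3 (r = 0.98), Pank1 (0.97) and Sspn (0.96). Those most like Il22ra2 were Zbtb20 (0.95), Wdfy1 (0.95) and Slc25a24 (0.94). Socs2 was most like Tmem11 (0.95), Ccnd1 (0.94) and Rasl10a (0.93), and Socs3 most like Whamm (0.94), Chst11 (0.94) and Fbxo2 (0.94).

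The other kinases and STATs gave a setting for these values. Jak1, which serves interferon, interleukin 2 and gp130 receptors, was the most abundant kinase, at 34.0 ± 2.97 FPKM in Sham, 46.0 ± 4.38 in OVX and 41.1 ± 2.87 with AS-IV (SD, n = 3 each). Every OVX library, at 42.8, 51.0 and 44.3 FPKM, exceeded every Sham library, at 32.3, 32.2 and 37.4. Jak1 rose by a log2FC of 0.41 in OVX vs. Sham (unadjusted p = 0.00311, adjusted p = 0.151). Jak3 and Tyk2 did not pass, with log2FC of 0.04 and 0.05.

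Of 4 other STAT genes, 2 passed in OVX vs. Sham, both higher, beside 8.16% of all genes. Stat6, which carries interleukin 4 and interleukin 13 signals, stood at 17.5, 19.4 and 21.3 FPKM in Sham and 24.3, 28.7 and 27.9 in OVX. Its log2FC was 0.45 (unadjusted p = 0.0124, adjusted p = 0.199). Stat2, of the type I interferon response, rose by 0.34 (unadjusted p = 0.0154, adjusted p = 0.209). It was at 18.9 ± 2.48 FPKM in Sham and 24.5 ± 1.35 in OVX. Stat4 had a log2FC of 0.49 and did not pass. In AS-IV vs. OVX none of these named kinases and STATs passed (unadjusted p = 0.0563 for Stat2).

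The lists of other pathway genes held 93 symbols, of which 86 were in the tables and 69 were tested. In OVX vs. Sham 17 of 69 (24.6%) passed, 10 higher and 7 lower, beside 16.4% of all genes. By role, 1 of 3 kinases, 2 of 4 STATs, 2 of 14 further inhibitors, 9 of 35 receptors, 3 of 11 ligands and 0 of 2 genes of the interleukin 22 axis passed. Over the 120 tested genes of the KEGG term 20.8% passed, 11 higher and 14 lower. That term is not a separate set, since its 143 genes include all 9 members and 83 genes of these lists. The median log2FC of the 69 genes was 0.05, and that of all genes -0.01.

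Of the 11 ligands tested, 1 rose and 2 fell in OVX vs. Sham, beside 8.16% and 8.28% of all genes. Lep, the adipocyte hormone that signals through JAK2 and STAT3, stood at 0.381, 0.635 and 0.586 FPKM in Sham and 1.99, 6.05 and 1.67 in OVX. It rose by a log2FC of 2.56 in OVX vs. Sham (unadjusted p = 0.00051, adjusted p = 0.129). Adipocyte markers, among which Lep is counted, moved with it: 6 of 8 rose in OVX vs. Sham, and their summed level was 379 to 467 FPKM in Sham and 562 to 778 in OVX. The part of adipocytes in the Lep value was not tested. Osm, oncostatin M, a ligand of the gp130 family and a STAT5 target, stood at 4.36, 4.56 and 3.92 FPKM in Sham, 2.06, 2.46 and 2.16 in OVX, and 4.51, 3.01 and 3.29 with AS-IV. OVX lay below both other groups without overlap. Osm fell by 0.97 on the log2 scale in OVX vs. Sham (adjusted p = 0.120) and rose by 0.74 in AS-IV vs. OVX (adjusted p = 0.652). These comparisons share the OVX libraries. Immediate early genes, which respond within minutes to many stimuli, moved in the same directions. In OVX vs. Sham 9 of 10 fell (median log2FC -0.67), beside 8.28% of all genes. In AS-IV vs. OVX 5 of 10 rose (median 0.37), beside 4.42% of all genes. Their summed level was 227 to 289 FPKM in Sham, 139 to 209 in OVX and 206 to 240 with AS-IV. Their part in the Osm value was not tested. Il15 fell by 0.34 in OVX vs. Sham (unadjusted p = 0.0472). Il6 had at most 4 counts in 8 libraries and 21 in AS-IV replicate 3, and was not tested.

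Among receptors, 5 of 35 rose and 4 fell in OVX vs. Sham, beside 8.16% and 8.28% of all genes. Il6st, which encodes gp130, stood at 17.3, 15.8 and 13.9 FPKM in Sham, 12.7, 12.1 and 10.0 in OVX, and 9.89, 11.5 and 10.2 with AS-IV. It fell by 0.47 in OVX vs. Sham (adjusted p = 0.151) and by 0.57 in AS-IV vs. Sham (unadjusted p = 0.000802), with both ovariectomized groups below Sham. Epor, the erythropoietin receptor, whose signal runs through JAK2 and STAT5, fell by 0.50 in OVX vs. Sham (unadjusted p = 0.0173). Il20rb, a subunit of the interleukin 20 receptors, fell by 1.10 (unadjusted p = 0.00154), and Il5ra, the interleukin 5 receptor of eosinophils, by 0.96 (unadjusted p = 0.0276). The receptors that rose were Csf2rb (0.49), Il21r (0.45), Ifngr2 (0.30), Il4r (0.27) and Il2rg (0.69), the values being log2FC. All 7 tested B lineage markers also rose in OVX vs. Sham. All 8 T and NK cell markers had a log2FC above 0 there (median 0.81), of which 2 passed. Of 8 erythroid markers, 7 had a log2FC below 0 (median -0.21), and 0 passed. The part of these cell types in the receptor values was not tested. Of the inhibitors, the phosphatase gene Ptpn6 rose by 0.32 and the SUMO ligase gene Pias4 fell by 0.27.

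In AS-IV vs. OVX 4 of 69 pathway genes (5.80%) passed, all higher, beside 6.45% of all genes. The median log2FC of the 69 was -0.01. With replicates of these 2 groups treated as pairs, a replicate block, 7 passed, 5 higher and 2 lower. Lepr, the leptin receptor, stood at 8.76, 7.10 and 9.58 FPKM in OVX and 12.3, 14.2 and 13.1 with AS-IV, a log2FC of 0.67 (unadjusted p = 0.000866, adjusted p = 0.652). Pias1, a SUMO ligase gene, rose by 0.35, and Csf3r, the granulocyte colony-stimulating factor receptor, by 0.40. Osm was the fourth. Ghr, the growth hormone receptor, had a log2FC of 0.31 and did not pass.

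Known STAT targets were counted apart, beside 16.4% of all genes in OVX vs. Sham and 6.45% in AS-IV vs. OVX. Of 14 STAT3 targets tested, 1 was higher (Il4r) and 1 lower (Junb) in OVX vs. Sham, and 2 were higher (Junb and Mcl1) in AS-IV vs. OVX. Junb is also 1 of the 10 immediate early genes described beside Osm. Of 11 STAT5 targets, 2 were lower in OVX vs. Sham (Osm and Bcl2l1), and 2 were higher in AS-IV vs. OVX (Osm and Igf1). Igf1, a growth factor that growth hormone induces through STAT5, stood at 6.03, 4.83 and 5.06 FPKM in Sham, 6.33, 4.93 and 6.65 in OVX, and 10.2, 10.4 and 8.41 with AS-IV. All 3 AS-IV libraries were above the other 6. Igf1 rose by 0.73 in AS-IV vs. OVX (unadjusted p = 0.000661, adjusted p = 0.652) and by 0.88 in AS-IV vs. Sham (adjusted p = 0.0815). In AS-IV vs. OVX the log2FC was -0.09 each for Stat5a and Stat5b, as transcript levels, which do not show STAT5 activity. The part of STAT5 in the Igf1 values was not tested.

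**Figure D5:**
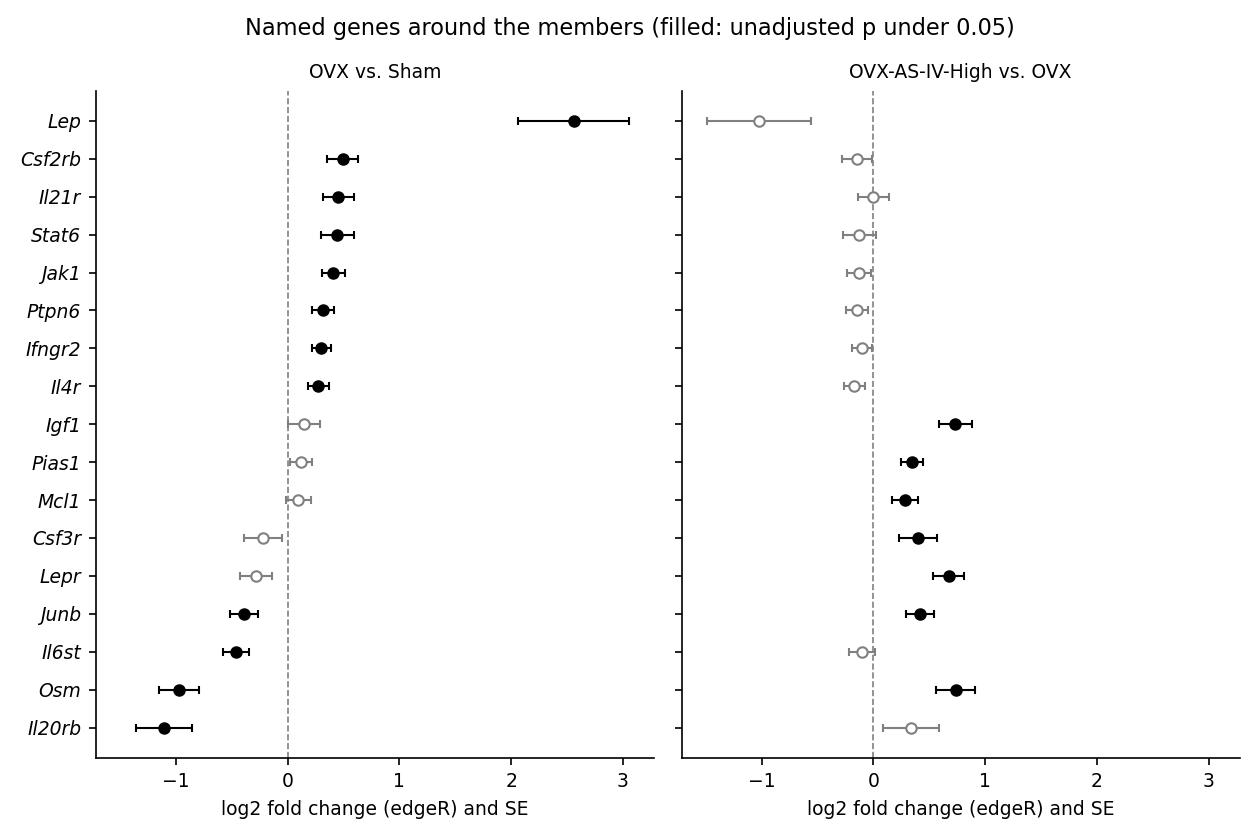
Log2 fold change and SE from edgeR for 17 named pathway and target genes in OVX vs. Sham (left) and AS-IV vs. OVX (right), with filled points where the unadjusted p was under 0.05. Lep has the largest change on the left at 2.56, and Igf1, Osm and Lepr lie at 0.73, 0.74 and 0.67 on the right. The panels share the OVX libraries.

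In AS-IV vs. Sham 16 of 69 pathway genes (23.2%) passed, 11 higher and 5 lower, beside 17.6% of all genes, 9.17% higher and 8.48% lower. Beside those already named, Il15 fell by 0.57, Pias4 by 0.36 and the STAT3 target Myc by 0.33. Ptprc, the leukocyte phosphatase CD45, rose by 0.72, Ghr by 0.66 and Pias1 by 0.47. Il20rb fell by 0.76, and Lep rose by 1.53, Il21r by 0.46 and Mcl1 by 0.38. Adjusted p-values of these genes lay between 0.101 and 0.173.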

How the data were processed

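RNA from rat bone (3 biological replicates per group) was sequenced from poly(A) libraries that kept strand. The authors aligned reads with TopHat and Bowtie 2 and deposited counts and FPKM per gene, estimated with eXpress, on build mRatBN7.2. Whether strand was used in counting is not given in the sources used here. The members and gene lists were chosen with earlier results of these data known. Deposited counts were tested with edgeR 4.0.16 (R 4.3.3; TMM, quasi-likelihood F test, default filter with a minimum count of 10, all 9 libraries in 1 fit); levels are the deposited FPKM, whose implied gene length was the same in every library. A call is an unadjusted p under 0.05; adjusted values follow Benjamini-Hochberg over 16874 genes. The named genes are the members, Igf1, Lep, Epor, Csf3r, Ghr, Il6 and Osm, and per comparison up to 12 list genes past that p with the smallest p; others that passed were named after their values were seen. Some list genes are not reported here. For likeness, the 3 named genes of highest r were taken. Alternatives were DESeq2 1.42.0, limma 3.58.1 on log2(FPKM + 1) and log2(FPKM + 0.1), other scaling, no filter, the 2 groups alone, a replicate block, and each library left out. Same-numbered OVX and OVX-AS-IV-High (AS-IV) libraries deviated together (r = 0.31, 0.16 and 0.13), but so did OVX replicate 2 and AS-IV replicate 3 (r = 0.18). With Sham, same-numbered libraries gave r = -0.16 for replicate 2 and from 0.20 to 0.44 for replicates 1 and 3. Sham replicate 2 and AS-IV replicate 1, of different numbers, gave r = 0.30. Pairing by number was therefore not established, and the replicate block served only as an alternative. In simulated OVX vs. Sham data, edgeR recovered 166 of 200 genes changed 3-fold among 16661, at an adjusted p under 0.05. It also called 13 unchanged genes. Smaller changes, such as that of Stat5a, were not simulated. No 2 libraries were duplicates.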

Additional observations from a re-analysis of the deposited data

How the results depend on the processing

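Stat5a kept its direction and its unadjusted call in OVX vs. Sham and in AS-IV vs. Sham under every alternative. The rank of the 9 members was the same with TPM computed from the counts. That TPM used the gene lengths implied by the FPKM, so it could not test the rank. With limma on log2(FPKM + 1) and on log2(FPKM + 0.1), the number of members past an unadjusted p of 0.05 was 1 in OVX vs. Sham, 0 in AS-IV vs. OVX and 1 in the averaged comparison. With single libraries left out, it ran from 1 to 3, from 0 to 1 and from 1 to 3 in these comparisons, and from 1 to 2 in AS-IV vs. Sham. Pathway genes past that p in AS-IV vs. OVX numbered 7 with no filter on low counts and 7 with a replicate block in OVX and AS-IV libraries alone. With single libraries left out they ran from 12 to 26 in OVX vs. Sham (26 without Sham replicate 3) and from 3 to 8 in AS-IV vs. OVX (7 without OVX replicate 1, 8 without AS-IV replicate 3). The replicate block, by pairing, gave a log2FC of -0.96 for Il22ra2 in OVX vs. Sham and 1.04 in AS-IV vs. OVX, and changed no member's call between groups; Jak2 in the averaged comparison passed at 0.24. Pairing by number was not established for any group, Sham included, so the block values rest on a shared number alone. DESeq2 also passed Cish in OVX vs. Sham (-0.72, unadjusted p = 0.0439).

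Signs turned only for members that did not pass. For Cish in AS-IV vs. OVX the log2FC was -0.024 and -0.044 with the limma fits, -0.015 with the replicate block in all libraries, -0.0051 with the block in OVX and AS-IV libraries alone, and from -0.21 to 0.13 with single libraries left out. For Stat3 in AS-IV vs. Sham it was 0.0011 when only these groups were fitted. With single libraries left out, the ranges that crossed 0 in AS-IV vs. Sham were -0.35 to 0.55 for Il22ra2, -0.089 to 0.044 for Stat3 and -0.47 to 0.065 for Socs1. In AS-IV vs. OVX they were -0.070 to 0.064 for Jak2, -0.14 to 0.015 for Socs2 and -0.57 to 0.059 for Socs3. In OVX vs. Sham they were -0.0087 to 0.047 for Stat5b, -0.043 to 0.31 for Socs1 and -0.46 to 0.17 for Socs3. In the averaged comparison they were -0.044 to 0.089 for Stat3, -0.19 to 0.19 for Socs1 and -0.44 to 0.0087 for Socs3. The cause was not tested. With 25 to 108 counts per library, Il22ra2 is the member whose depth limits precision most.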

Other observations

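Il10, Il4, Il13, Ifng, Il2, Csf2, Csf3 and Gh1 were too low to test, with at most 14, 3, 4, 4, 1, 2, 1 and 4 counts in any library. Of 26 pathway ligands with deposited values, 11 were tested.

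By list, the median log2FC in OVX vs. Sham was 0.62 for 7 B lineage markers, 1.23 for 8 adipocyte markers and -1.05 for 11 muscle markers, none of the muscle markers passing an unadjusted p of 0.05.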
